A study of Mus musculus with 30 samples.

Results

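Androgens act on the preputial gland through enzymes that make, strengthen or inactivate the hormone and through proteins that carry its signal, and the 7 genes described here were chosen from a list of both kinds: Srd5a1, Srd5a2, Hsd17b2, Hsd17b4, Hsd3b6, Akr1c18 and Fkbp5. They were matched by gene, 1 probe set each, among 21210 genes tested, and the rule uses gene names only.

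Male mice of the B6 background, wild type (WT), Cyp1a1 knockout (KO) or Cyp1a1/1b1 double knockout (DKO), ate food carrying benzo[a]pyrene (BaP), a combustion-derived carcinogen, in corn oil. The diet started at 6 weeks of age and delivered about 12.5 mg/kg/day. Glands labelled preputial gland duct were taken at weeks 0, 4, 8, 12 and 16, with 2 mice in each of the 15 groups, which limits the precision of every value. Week 0 was the only unexposed group of each genotype, so exposure and age cannot be told apart. The labels give no further allele, and BaP in corn oil is the only agent they name.

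The preputial gland is a modified sebaceous gland of rodents whose growth and lipid secretion depend on androgen. Testosterone reaches its strongest form, dihydrotestosterone, through a 5-alpha-reductase inside the target cell, while 17-beta-hydroxysteroid dehydrogenases of the oxidising kind convert potent androgens and estrogens to weaker ones. Steroid receptors wait in a chaperone complex that holds Hsp90 and FK506-binding proteins, and one of these, Fkbp5, is itself induced by androgen and glucocorticoid.

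Signal of the targeted genes did not follow the labels. Cyp1a1 lay at log2 intensities from 4.26 to 4.74 in WT, from 3.67 to 4.80 in KO and from 3.96 to 6.14 in DKO arrays. Cyp1b1 ranged from 6.17 to 6.77 in WT and from 7.48 to 10.57 in the arrays labelled DKO, where it was targeted. In KO it ranged from 6.66 to 8.82, with a median of 8.41, also mostly above WT. Where these probe sets lie relative to the deleted parts was not tested, and genotypes are given as labelled throughout. The arrays also differed in range. In 9 arrays the standard deviation (SD) of all log2 values was 1.15 to 1.42, against 1.70 to 2.08 in the other 21. These 9 low-range arrays were 8 of the 10 labelled DKO and replicate 2 of KO week 12. Sample numbers in the labels ran from 1 to 20 for all WT, 9 KO and 1 DKO array and from 22 to 33 for the rest, which is nearly the genotype split. Array medians lay between 5.12 and 5.47, and no fold is given where a group mean was under 5.29. The mean of 14 sebaceous markers was above that level on every array, at 8.68 to 9.06 in WT, 8.19 to 8.87 in KO and 6.36 to 8.41 in DKO. One of them, Awat1, was under the array median on all WT and KO arrays and on 9 of 10 DKO arrays. Of 7 markers of other male accessory glands, 6 were under the array median on all 30 arrays.

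The promoters of Srd5a1 and Srd5a2 are shown because the 2 isoenzymes catalyse the same step and lay on opposite sides of WT in the DKO arrays. No promoter of Hsd17b2 or Hsd17b4 was searched. Hsd3b6 is added as the one gene with the hormone receptor hexamer among the 5 members whose promoters were searched. Each is the 250 bases before the RefSeq transcription start on GRCm38.p6, minus strand, 5′ to 3′: chr13:69611464-69611713 for Srd5a1, chr17:74047861-74048110 for Srd5a2 and chr3:98814444-98814693 for Hsd3b6. Capitals mark GGGCGG (the GC box), GCGTG (the core bound by the aryl hydrocarbon receptor, which BaP activates), AGAACA (the core hexamer of androgen and glucocorticoid response elements) and TATAA, each read on both strands.
Srd5a1: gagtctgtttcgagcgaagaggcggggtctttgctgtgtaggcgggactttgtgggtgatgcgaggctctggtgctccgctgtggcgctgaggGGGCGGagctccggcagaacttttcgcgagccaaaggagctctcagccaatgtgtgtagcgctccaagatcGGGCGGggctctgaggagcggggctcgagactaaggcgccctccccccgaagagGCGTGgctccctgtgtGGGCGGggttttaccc
Srd5a2: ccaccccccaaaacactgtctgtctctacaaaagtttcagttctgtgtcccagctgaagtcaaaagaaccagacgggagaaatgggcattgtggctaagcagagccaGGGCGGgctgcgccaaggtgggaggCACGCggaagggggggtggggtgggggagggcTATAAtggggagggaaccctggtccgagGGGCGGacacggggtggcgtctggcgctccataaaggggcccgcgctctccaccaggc
Hsd3b6: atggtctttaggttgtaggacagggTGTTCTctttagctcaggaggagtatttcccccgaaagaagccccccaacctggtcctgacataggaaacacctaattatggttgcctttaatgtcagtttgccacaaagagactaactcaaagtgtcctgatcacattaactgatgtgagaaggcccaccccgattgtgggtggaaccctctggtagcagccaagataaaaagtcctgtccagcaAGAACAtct
Srd5a1 held 3 GC boxes and 1 GCGTG in a window with 64.8% G or C. Srd5a2 held 2 GC boxes, 1 GCGTG and 1 TATAA at 63.2%, and Hsd3b6 held 2 AGAACA at 47.2%. No marked matches overlapped. In all 32851 RefSeq promoters of this length, GGGCGG was present in 32.7%, GCGTG in 28.2%, AGAACA in 16.1% and TATAA in 22.8%, so each match is common. Of the other members, Fkbp5 (chr17:28486150-28486399) held 3 GC boxes and Akr1c18 (chr13:4150647-4150896) held 1 GC box and 1 TATAA. These letters are a description of the windows and show no binding.

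Srd5a1, the 5-alpha-reductase found in skin and sebaceous glands, had the largest differences of KO and DKO from WT among the members. In WT its log2 intensity was 8.53 at the lowest, 8.82 at the median and 9.29 at the highest of 10 arrays. KO arrays ran from 6.73 through a median of 7.93 to 8.44, and DKO arrays from 5.39 through 6.65 to 6.96. Every WT array was above every KO and every DKO array. Over all genes, 1.40% had WT and KO arrays that did not overlap in either direction, 273 of them lower and 23 higher in KO. DKO and WT arrays were apart for 17.5% of genes, while DKO and KO arrays of Srd5a1 overlapped. Ordered by group mean, the 5 WT weeks were the highest, the 5 KO weeks came next and the 5 DKO weeks were the lowest. Of the 14 steps between neighbours in that order, 4 exceeded the SDs of both groups, and the step from KO week 16 (6.90) to DKO week 12 (6.69) did not.

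**Figure D1:**
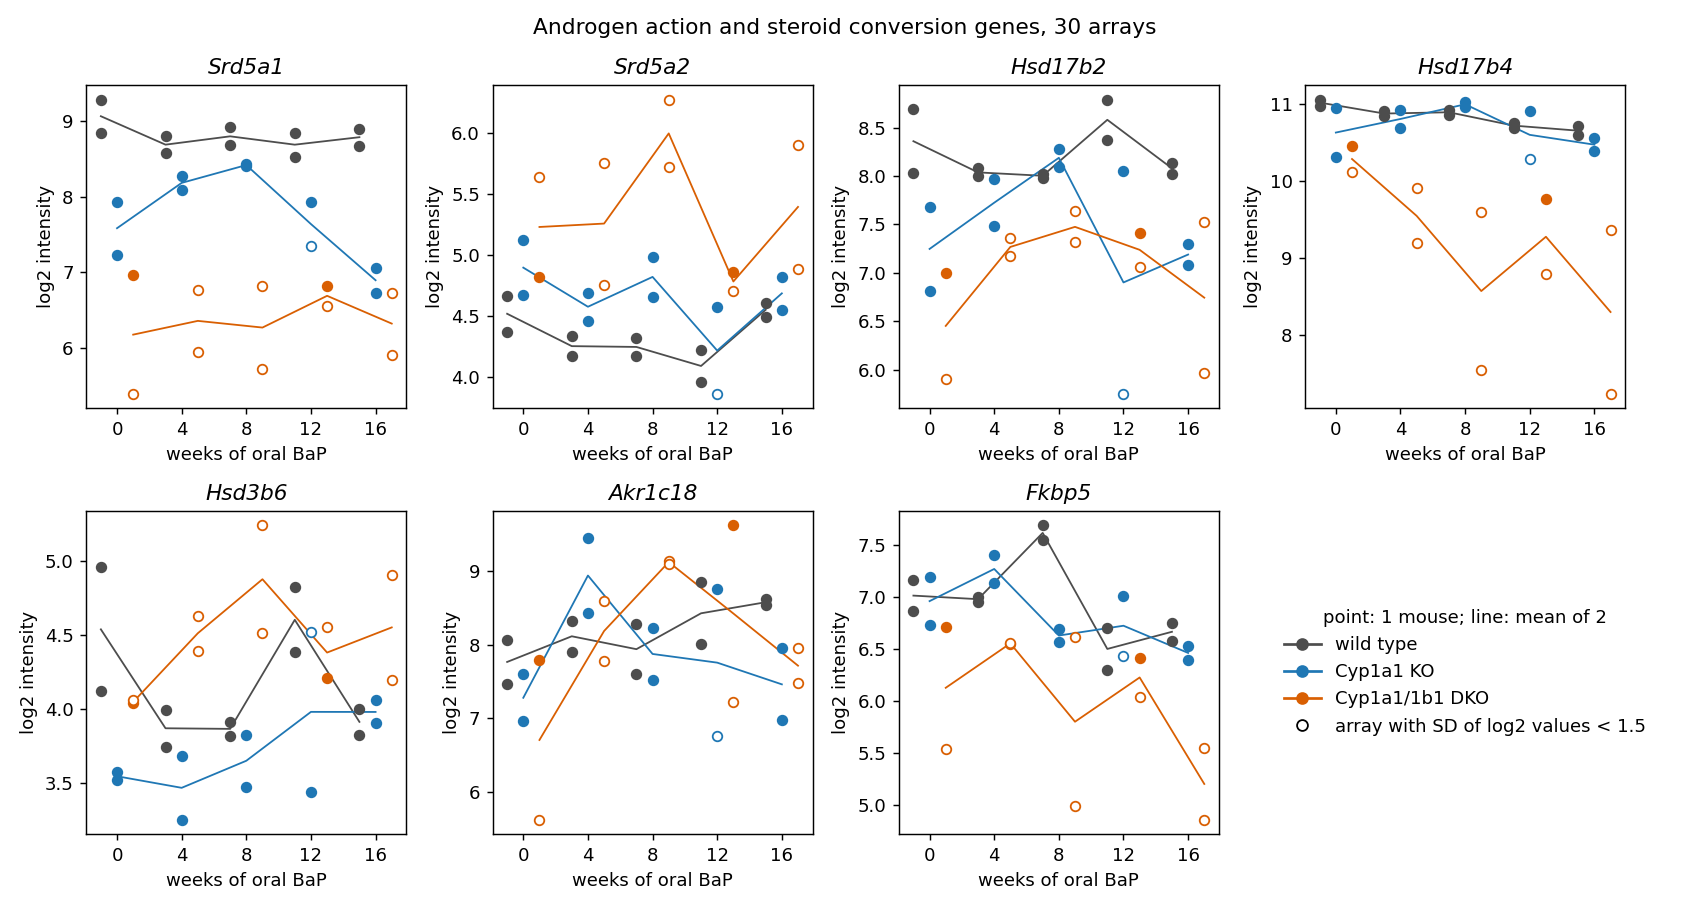
Log2 intensity of the 7 genes (vertical axes) against weeks of oral BaP (horizontal axes) for WT, KO and DKO mice. A point is 1 mouse, shifted sideways by genotype for legibility, a line joins the means of the 2 mice of each week, and open points are low-range arrays; the Srd5a1 panel shows WT at 8.53 or above, KO at 8.44 or below and DKO at 6.96 or below.

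The first question was whether glands labelled Cyp1a1 KO differed from WT. Averaged over the 5 weeks, Srd5a1 was 1.06 ± 0.20 (SE) log2 lower in KO than in WT, which is 2.09-fold (10 arrays each, adjusted p = 0.00350, limma). It was the only member called, at an adjusted p under 0.05, where 4.05% of all genes were called, 773 lower and 86 higher. Genes whose WT mean lay in the same band, 8 to 9 log2, had a median difference of -0.16, and 11.1% of them were called. After quantile normalization of the arrays the difference was -0.84 and was not called (adjusted p = 0.112).

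Srd5a1 already differed at week 0, before any BaP. The WT values were 8.85 and 9.29, the KO values 7.23 and 7.94 and the DKO values 6.96 and 5.39. Both knockout pairs thus lay below both WT mice. KO minus WT was -1.48 ± 0.45 (adjusted p = 0.421), in a comparison where 0% of genes were called and 1445 had an unadjusted p under 0.05. DKO minus WT was -2.89 ± 0.45, a 7.41-fold lower level (adjusted p = 0.00363), and was the only member called where 3.58% of genes were. Genes of the same WT band had a median of -0.96 there, and 11.7% of them were called. That call was lost without WT replicate 2 (-2.67, adjusted p = 0.243) and without DKO replicate 2, a low-range array (-2.11, adjusted p = 0.139). It was also lost after quantile normalization (-2.55, adjusted p = 0.0941), with array weights (adjusted p = 0.0834) and with only the compared groups in the fit (adjusted p = 0.419). Between DKO and KO at week 0 the difference was -1.41 ± 0.45 (adjusted p = 0.577), with 0% of genes called and 1758 at an unadjusted p under 0.05. Without DKO replicate 1 it was -2.19 (adjusted p = 0.00496), so the array left out decided that call.

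A fit restricted to sample numbers 1 to 20 holds no low-range array. There Srd5a1 was 1.00 ± 0.11 log2 lower in KO over the 5 weeks (adjusted p = 3.79e-05). Of all genes, 24.5% were called in that comparison, 15% for KO minus WT at week 0 and 9.71% for DKO minus WT at week 0. At week 0 within those numbers KO was lower by the same 1.48, now with an SE of 0.23 (adjusted p = 0.00314). The single DKO array in that range differed from WT by -2.11. The spread of DKO cannot be estimated there. Over all arrays the DKO week 0 pair had an SD of 1.11, against 0.31 in WT.

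Within KO, Srd5a1 moved with time but not in 1 direction. The pairs of values were 7.23 and 7.94 at week 0, 8.28 and 8.09 at week 4, 8.44 and 8.40 at week 8, 7.93 and 7.35 at week 12 and 6.73 and 7.06 at week 16. Week 8 was highest and week 16 lowest, and those pairs did not overlap. The moderated F test over the 5 weeks was not called (adjusted p = 0.979), with 0% of genes called in KO and 549 at an unadjusted p under 0.05. Within numbers 1 to 20, without the week 12 array at 7.35, Srd5a1 was called by the F test (adjusted p = 0.0309), as were 0.905% of genes. It was also called by the F test with array weights (adjusted p = 0.00278), a setting given here without its share of all genes called. Without the other week 12 array, at 7.93, the member called by that test was Hsd17b2 (adjusted p = 0.0485).

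Sebaceous marker levels also differed among the KO arrays, where no sebaceous marker was called over the weeks. In the KO arrays of week 16, where Srd5a1 was lowest, the sebaceous mean was 8.36 and 8.43, and in the KO arrays of week 8, where it was highest, it was 8.87 and 8.75. The 2 orders were not the same throughout. The lowest KO sebaceous mean, 8.19, was that of week 12 replicate 2, where Srd5a1 was 7.35. Over the 5 weeks, in the fit of all arrays, 4 of 14 sebaceous markers were called lower in KO than in WT. They were Dgat2, Mc5r, Elovl3 and Fasn, and none was called higher in that fit. Within the lower range of sample numbers, sebaceous markers were called in both directions. The 4 markers are 28.6% of the sebaceous list, beside an average of 10% of genes in the same WT bands. Of 6 basal keratinocyte markers, 2 were also called lower in the fit of all arrays, Krt5 (-0.81) and Krt14 (-0.67). They are 33.3% of that list, beside an average of 9.08% in the same WT bands. Lower calls were thus not particular to sebaceous markers. Dgat2, the final enzyme of triglyceride synthesis, differed by -1.14 ± 0.21 (adjusted p = 0.00274). The part of either set of markers in the Srd5a1 result was not tested. In bulk glands, fewer cells of a type and less RNA per cell cannot be told apart.

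**Figure D2:**
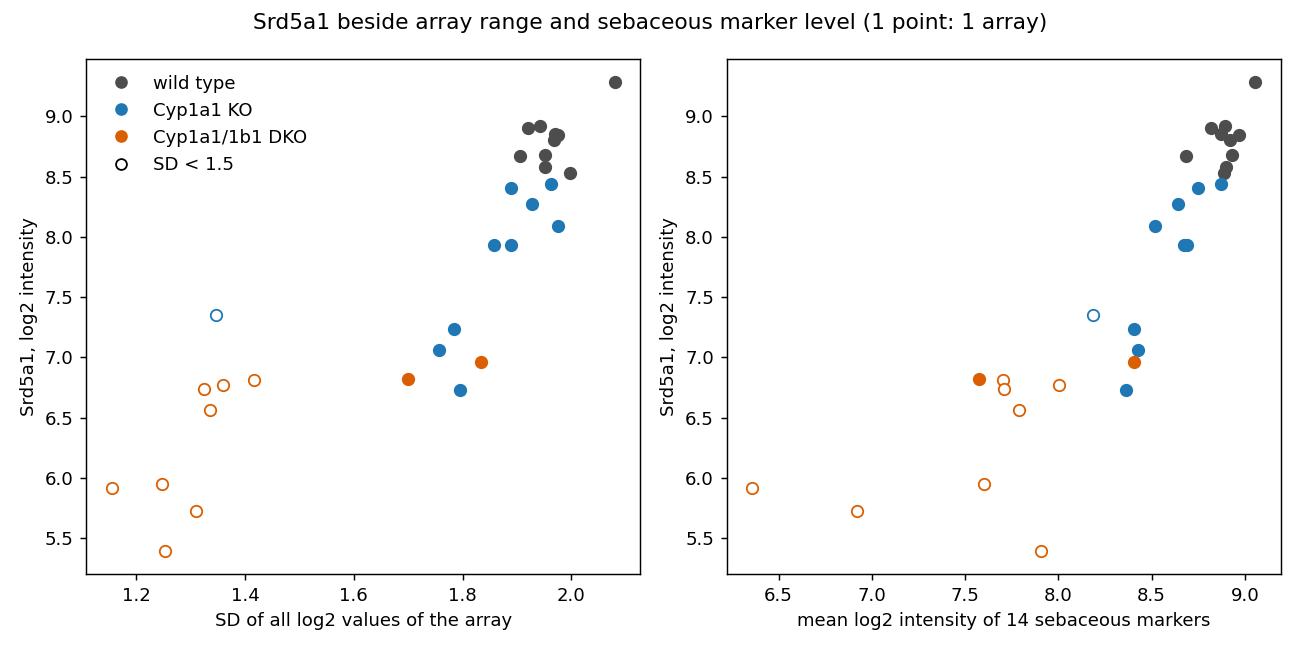
Srd5a1 log2 intensity (vertical axes) against the SD of all log2 values of the array (left) and the mean log2 intensity of 14 sebaceous markers (right). A point is 1 array, coloured by labelled genotype and open where the SD was under 1.5; WT arrays lie at sebaceous means of 8.68 to 9.06 and DKO arrays at 6.36 to 8.41.

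Averaged over the 5 weeks, Srd5a1 was lower by 2.44 ± 0.20 in DKO than in WT (5.44-fold, adjusted p = 1.30e-08) and by 1.38 ± 0.20 than in KO (2.60-fold, adjusted p = 2.80e-05). Calls were general in both comparisons, at 74.1% of all genes for DKO minus WT and 59.2% for DKO minus KO. Of the genes in the same WT band, 93.1% were lower in DKO than in WT, with a median of -1.24, and 93.4% were lower in DKO than in KO. Without the 9 low-range arrays, which leaves DKO at weeks 0 and 12 only, 38.6% and 9.29% of genes were called. There Srd5a1 differed by -1.99 (adjusted p = 8.75e-06) and -0.87 (adjusted p = 0.0225). With the number range as a block, where 0.783% and 0.165% of genes were called, the differences were -1.48 ± 0.38 (adjusted p = 0.0653) and -0.52 ± 0.34 (adjusted p = 0.653), so both calls were lost. Genotype and number range cannot be told apart beyond that block, which rests on 2 groups holding both ranges.

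Srd5a2, the isoenzyme typical of the prostate and other reproductive tissue, had WT and KO means under 5.29, so no fold is given. WT arrays had 3.96 at the lowest, 4.33 at the median and 4.66 at the highest, KO arrays 3.86, 4.66 and 5.12, and DKO arrays 4.70, 5.26 and 6.27. All DKO arrays were above all WT arrays, and KO overlapped both. The DKO excess over WT was 1.00 ± 0.17 log2 (adjusted p = 3.53e-05) and over KO 0.69 ± 0.17 (adjusted p = 0.00202). Genes of the same WT band, 4 to 5, had median differences of 0.57 and 0.39, and 95.8% of them were higher in DKO than in WT. Without the low-range arrays, and so with no DKO replicate, the difference from WT was 0.54 and that from KO 0.11. With the number range block both calls were lost, at 0.95 ± 0.38 (adjusted p = 0.261) and 0.65 ± 0.34 (adjusted p = 0.552).

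Hsd17b2, which oxidises testosterone and estradiol to weaker hormones, followed Srd5a1 in part. Its WT arrays ran from 7.98 through 8.05 to 8.79, KO arrays from 5.75 through 7.58 to 8.28 and DKO arrays from 5.90 through 7.25 to 7.64. DKO lay wholly below WT, while KO overlapped both. DKO was 1.18 ± 0.25 lower than WT (2.26-fold, adjusted p = 0.000259), beside a band median of -1.24. With the number range block the sign turned (0.35, adjusted p = 0.769), and after quantile normalization the difference was -0.34 (adjusted p = 0.276). KO minus WT was -0.76 ± 0.25 (adjusted p = 0.0899). At week 0 DKO minus WT was -1.91 ± 0.55 (limma adjusted p = 0.0546), and it was -1.36 for the single DKO array within numbers 1 to 20. The KO difference over the 5 weeks was called without KO week 12 replicate 1 (-0.99, adjusted p = 0.00278) and within numbers 1 to 20 (-0.53, adjusted p = 0.00975). The KO week 12 pair was 8.05 and 5.75, the latter the low-range array.

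Hsd17b4, the peroxisomal multifunctional enzyme that shortens fatty acids and also oxidises estradiol, had WT and KO arrays that overlapped. WT arrays had 10.60 at the lowest, 10.86 at the median and 11.06 at the highest, and KO arrays 10.29, 10.80 and 11.03. KO minus WT was -0.13 ± 0.25, with an interval from -0.65 to 0.38 (adjusted p = 0.751). DKO arrays ran from 7.24 through 9.48 to 10.46, wholly below WT. The differences were -1.63 ± 0.25 from WT (3.10-fold, adjusted p = 1.08e-05) and -1.50 ± 0.25 from KO (2.84-fold, adjusted p = 8.34e-05), beside band medians of -1.09 and -0.89. Without the low-range arrays, and so with no DKO replicate, they were -0.76 and -0.66. With the number range block both calls were lost, at -1.20 (adjusted p = 0.332) and -1.12 (adjusted p = 0.441).

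In DKO glands Hsd17b4 was lower after 16 weeks of BaP than at the start. The values were 10.46 and 10.12 at week 0, 9.19 and 9.91 at week 4, 9.60 and 7.55 at week 8, 8.79 and 9.77 at week 12 and 7.24 and 9.36 at week 16. No later array reached either week 0 array. All of these were low-range arrays except week 0 replicate 1, at 10.46, and week 12 replicate 2, at 9.77. The array at 7.24, week 16 replicate 1, had the lowest SD of all 30 arrays, 1.15. Week 16 minus week 0 was -1.98 ± 0.55 (3.96-fold, adjusted p = 0.0488), the only member called, where 3.63% of genes were called. Without week 16 replicate 1 it was -0.92 (adjusted p = 0.451), and without week 0 replicate 1 it was -1.81 (adjusted p = 0.170), so single arrays decided the call. The number range block (-1.74, adjusted p = 0.119) and quantile normalization (-1.29, adjusted p = 0.0671) ended it too. The mean of weeks 4 to 16 was 1.36 ± 0.44 lower than week 0 (adjusted p = 0.134). It passed without week 8 replicate 1 (-1.62, adjusted p = 0.0326) or week 16 replicate 2 (-1.63, adjusted p = 0.0203). Of 14 sebaceous markers 2 were called lower at week 16, Awat2, a wax synthase (-3.20), and Plin2, a lipid droplet coat protein (-2.19), and 12 were not called. The mean of 6 cornified-layer markers was 6.81 and 6.89 at week 0, 7.25 and 7.44 at week 4 and 8.49 to 10.03 at weeks 8 to 16. Of these markers, Krt1 (5.65), Krt10 (3.35) and Sprr2d (4.79) were called higher at week 16, and Lor, Ivl and Sbsn were not called. Of 7 leukocyte markers 2 were called higher at week 16, S100a8 (6.68) and C1qa (1.06), and their mean went from 5.66 and 6.73 at week 0 to 8.59 and 6.91 at week 16. The part of any of these cell types in the Hsd17b4 result was not tested.

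Akr1c18, the 20-alpha-hydroxysteroid dehydrogenase that inactivates progesterone, had genotypes that overlapped throughout. WT arrays ran from 7.46 through 8.17 to 8.85, KO arrays from 6.76 through 7.77 to 9.46 and DKO arrays from 5.62 through 7.87 to 9.62. DKO minus WT was -0.13 ± 0.32 (interval -0.80 to 0.53) although genes of its WT band had a median of -1.24. Within DKO its values were 7.79 and 5.62 at week 0, 7.77 and 8.60 at week 4, 9.14 and 9.10 at week 8, 7.22 and 9.62 at week 12 and 7.95 and 7.47 at week 16. The week 8 pair was the closest and the week 12 pair the widest. Weeks 4 to 16 exceeded week 0 by 1.66 ± 0.57 (adjusted p = 0.156), which was not called. The difference was called after quantile normalization (2.38, adjusted p = 0.0134), with the number range block (2.70, adjusted p = 0.00846) and without week 0 replicate 1 (2.74, adjusted p = 0.0378). Without week 0 replicate 2, the low-range array at 5.62, it was 0.58 (adjusted p = 0.578), so its size rests on the week 0 pair. The highest KO value, 9.46, was replicate 2 of week 4, whose skeletal muscle marker mean of 6.76 was the highest of all 30 arrays.

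Hsd3b6, a 3-beta-hydroxysteroid dehydrogenase of steroid-producing cells, was under the array median on all 30 arrays. Its ranges were 3.74 to 4.96 in WT, 3.25 to 4.52 in KO and 4.04 to 5.24 in DKO, with medians of 4.00, 3.63 and 4.45, and all overlapped. DKO exceeded KO by 0.75 ± 0.16 (limma adjusted p = 0.000833), beside a band median of 0.39. Without the low-range arrays, and so with no DKO replicate, the difference was 0.63. KO minus WT was -0.43 ± 0.16 (adjusted p = 0.157), against a band median of 0.18. Within numbers 1 to 20 it was -0.54 (adjusted p = 0.0051).

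Fkbp5, the receptor co-chaperone, overlapped in all pairs of genotypes. WT arrays ran from 6.30 through 6.91 to 7.69, KO arrays from 6.40 through 6.71 to 7.40 and DKO arrays from 4.86 through 6.23 to 6.72. DKO was 0.97 ± 0.19 lower than WT (1.96-fold, adjusted p = 0.000124) and 0.83 ± 0.19 lower than KO (1.77-fold, adjusted p = 0.00114), beside band medians of -0.55 and -0.35. Without the low-range arrays, and so with no DKO replicate, the differences were -0.19 from WT and -0.42 from KO. In WT both week 8 arrays, 7.69 and 7.55, were above all other WT arrays. The WT F test did not call Fkbp5 (limma adjusted p = 1) where 0.00943% of genes were called. With array weights it did (adjusted p = 0.000456), a setting given here without its share of all genes called.

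**Figure D3:**
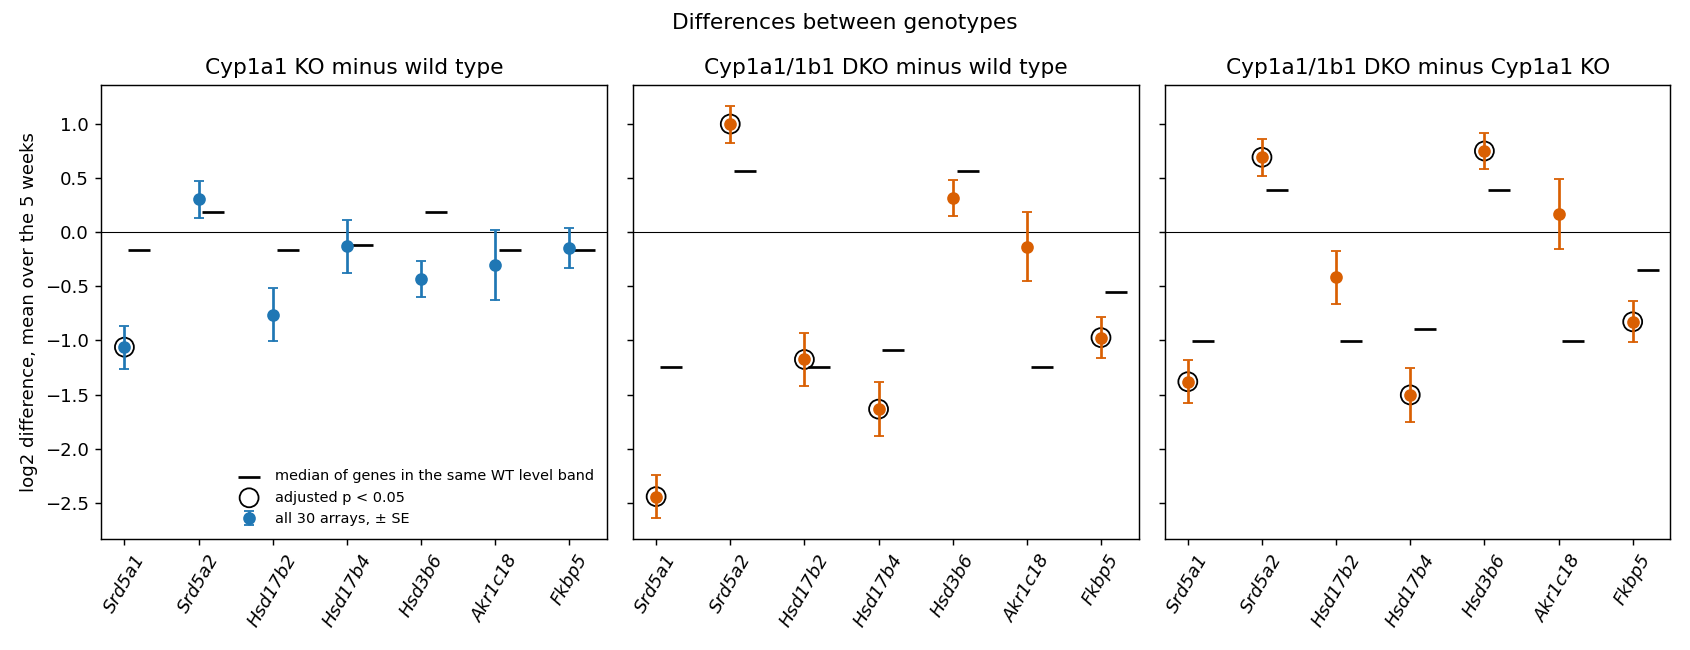
Log2 difference between genotypes, mean over the 5 weeks (vertical axes), for each of the 7 genes in 3 comparisons. Points are limma estimates with bars of 1 SE, rings mark adjusted p under 0.05, and black dashes are the median difference of all genes in the same 1-log2 band of WT level; the KO panel has 1 ring, on Srd5a1, and the DKO panels have 5 each.

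Counted together, 1 of 7 members was called for KO minus WT, 5 for DKO minus WT (4 lower, 1 higher) and 5 for DKO minus KO (3 lower, 2 higher). The shares of all genes called were 4.05%, 74.1% and 59.2%, and the last 2 counts are near that background. With the number range as a block 0 of 7 were called in both DKO comparisons. The members' median differences were -0.30, -0.97 and -0.41, against 0.11, 0.25 and 0.17 over all genes. In the members' own WT bands the median of the band medians was -0.16, -1.09 and -0.89. Within numbers 1 to 20, KO minus WT had 4 members called over the 5 weeks (Srd5a1, Hsd17b2 and Hsd3b6 lower, Srd5a2 higher by 0.38), where 24.5% of all genes were called. At week 0 it had 3 (Srd5a1, Hsd17b2 and Hsd3b6 lower), where 15% of genes were. Srd5a2 and Hsd3b6 had WT and KO means under 5.29.

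Over the weeks on BaP, 1 member was called in 1 genotype, Hsd17b4 in DKO at week 16. In WT no member and 0% of genes were called over weeks 4 to 16, with 172 genes at an unadjusted p under 0.05, and the same held at week 16 with 244. KO likewise had no member and 0% of genes called, and 315 and 250 genes were under 0.05 before adjustment. The members' counts in WT and KO are thus those of all genes. In DKO no member was called over weeks 4 to 16, where 0.882% of genes were, and the F test across its weeks called 4.16% of genes and no member. The change from week 0 was not shown to differ between genotypes for any member. That test called 0% of genes between KO and WT, with 123 at an unadjusted p under 0.05, 0.0377% between DKO and WT and 0.0283% between DKO and KO. The lowest adjusted p of a member in these was 0.637, for Hsd17b4 between DKO and KO (-1.45 ± 0.62).

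**Figure D4:**
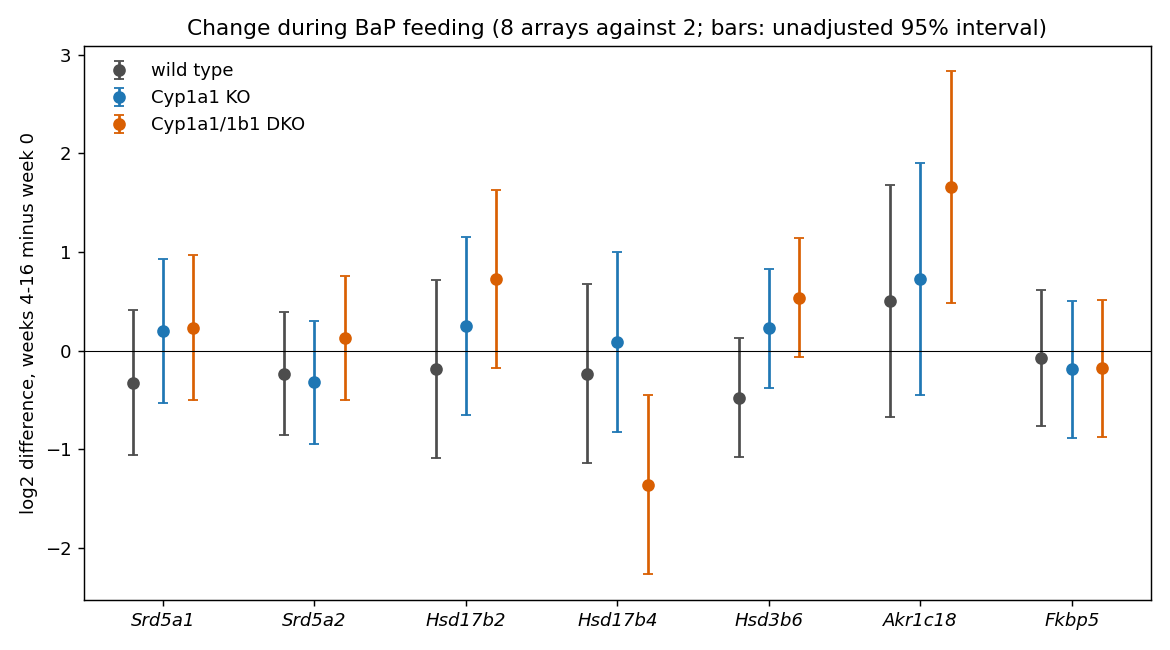
Log2 difference of the mean of weeks 4 to 16 from week 0 (vertical axis) for the 7 genes in WT, KO and DKO, 8 arrays against 2 in each. Points are limma estimates and bars their unadjusted 95% intervals; the DKO intervals of Hsd17b4 (-2.27 to -0.45) and Akr1c18 (0.48 to 2.84) leave out 0, and neither was called after adjustment.

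Other genes of steroid conversion were measured for 32 of 33 listed, of which 11 were under the array median on all arrays. Por, the electron donor of microsomal P450 enzymes, was the only one called between KO and WT (-0.93 ± 0.18, adjusted p = 0.00400). At week 0, Hsd17b10, a mitochondrial dehydrogenase (-2.86, adjusted p = 0.0125), and Por (-1.96, adjusted p = 0.0134) were lower in DKO than in WT. At week 16 of DKO, where 3.63% of all genes were called, Hsd11b1, which regenerates active glucocorticoid, differed from week 0 by -1.70 ± 0.46 (limma adjusted p = 0.0431). Cyp11a1, the first enzyme of steroid synthesis, was called higher (adjusted p = 0.0361) but lay under the array median on all arrays, so no size is given. Over the 5 weeks 20 were called higher and 9 lower in DKO than in WT, which is 90.6% of the list against 74.1% of all genes. Genes in the same WT bands were called in 83.5% on average. The list median of 0.53 stood beside 0.77 for the median of those bands.

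Of 14 genes of the receptor complex and its coactivators, none was called between KO and WT. In DKO against WT 11 were lower and 1 was higher, Foxa1, a pioneer factor, which was under the array median on all WT and KO arrays. That is 85.7% of the list, beside an average of 76.7% in the same WT bands, and the list median of -1.18 stood beside -1.14 for those bands. Fkbp4, the Hsp90 partner that competes with Fkbp5 for the receptor, was lower in DKO over weeks 4 to 16 than at week 0 (-1.48 ± 0.35, limma adjusted p = 0.0449). At week 16 its difference was -2.04 ± 0.44 (limma adjusted p = 0.0157). It was the only one of the 14 called in each, where 0.882% and 3.63% of all genes were called. For genes of the lists, single arrays left out and the number range block were not examined. Pias1, a SUMO ligase and receptor coregulator, was lower in DKO than in WT at week 0 (-1.54, adjusted p = 0.0485).

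Among 18 genes known from other tissues to respond to androgen, 2 were lower in KO than in WT: Homer2, a scaffold protein (-0.62, adjusted p = 0.0242), and Pmepa1, a feedback inhibitor of TGF-beta signalling (-0.62, adjusted p = 0.0369). Those 2 are 11.1% of the list, beside an average of 8.28% in the same WT bands. Pmepa1 was also lower in DKO at week 0 (-1.36, adjusted p = 0.0451). Over the 5 weeks 11 were lower and 4 higher in DKO than in WT, or 83.3% beside an average of 77% in the same WT bands, and the list median of -0.54 stood beside -0.55 for those bands. Of 12 glucocorticoid-responsive genes, Mt2, a metallothionein, was lower in KO (-0.89 ± 0.25, adjusted p = 0.0426). That is 8.33% of the list, beside an average of 8.1% in the same WT bands. In DKO against WT 4 were lower and 2 higher, or 50% beside an average of 72.2% in the same WT bands. Within numbers 1 to 20, where 24.5% of all genes were called for KO minus WT over the 5 weeks, more genes of each list were called. They were 3 higher and 5 lower for steroid conversion, 3 and 4 for the receptor complex, 4 and 4 for androgen response and 1 and 4 for glucocorticoid response. No gene of these 4 lists was called in WT or KO over weeks 4 to 16 or at week 16, or for a change that differed between genotypes.

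Genes whose values followed each member most closely were ranked by Pearson r over the 21 arrays of normal range. These arrays differ in genotype and week, so r also holds the differences between those groups. The value over all 30 is given second. Srd5a1 was most like Csnk2b, a kinase subunit (0.97 and 0.92), Slc3a2, an amino acid transporter chain (0.97 and 0.94), and Anxa2 (0.97 and 0.95). Hsd17b4 was most like Acsl1, which activates fatty acids (0.96 and 0.97), Immt (0.96 and 0.96) and Agtpbp1 (0.96 and 0.86). Hsd17b2 was most like Aqp9 (0.95 and 0.71), Sptlc1 (0.94 and 0.87) and Zdhhc16 (0.94 and 0.82). Likeness of the other 4 was lower. The best were Dnlz for Hsd3b6 (0.89 and 0.32), Rai14 for Akr1c18 (0.89 and 0.43), Gria2 for Srd5a2 (0.85 and 0.76) and Pik3r1 for Fkbp5 (0.80 and 0.87). Within the 10 arrays of a genotype r could be lower or of the other sign. For Srd5a1 and Csnk2b it was 0.58 in WT and 0.72 in KO, for Srd5a2 and Gria2 0.87 and -0.43, and for Hsd3b6 and Dnlz 0.87 and -0.19. Between members, Srd5a1 and Hsd17b2 had 0.83 and 0.77, and Srd5a1 and Akr1c18 had 0.08 and 0.23.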

How the data were processed

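RNA of 30 preputial gland samples was amplified (Ovation Pico WTA) and biotin-labelled, per the labels' protocols. The authors deposited log2 intensities per probe set, made with RMA (background correction, quantile normalization and probe summary), per the submitters' processing notes. For the annotation build, no source used here names one. Of 21212 probe sets, 18786 had 1 symbol in the platform table, 6 had several and 2420 were not listed, of which 1916 were named through the RefSeq gene ID that forms the probe set number and 504 stayed unnamed. That number was the Entrez ID for 18743 of 18792 listed probe sets. Srd5a1, Srd5a2 and Por were among those named this way. Some genes of the lists are counted but not reported singly here. The highest probe set stood for a gene, with no filter on low values.

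Group means of the 15 groups were estimated with limma 3.58.1 (R 4.3.3; residual degrees of freedom 15, prior 6.47), using moderated two-sided tests adjusted by Benjamini-Hochberg over 21210 genes and calls at 0.05. Each gene has 1 spread shared by all genotypes, which the arrays do not bear out. Array weights, higher where arrays scatter less, were 0.18 to 0.35 in DKO, 0.19 to 3.03 in KO and 1.46 to 6.25 in WT. SEs and adjusted p of DKO comparisons may thus be too small, and those of KO minus WT too large. The members and lists were chosen with earlier results of these data known. All 7 members are named, up to 4 genes of each list per comparison and any called, and the genes most like each member. Alternatives were another normalization, centring, a low-value filter, other variance models, array weights, blocks, subsets of arrays and single arrays left out. The fit was also run on simulated data with the same spread on every array, which does not test the effect of the low-range arrays.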

Additional observations from a re-analysis of the deposited data

How the results depend on the processing

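Member differences were followed over all alternatives where their unadjusted p was under 0.05 or another setting called them. They kept direction and side of the threshold, called or not, in 678 settings, 394 of them with a single array left out. They passed it in 33, lost it in 31 and turned in 5. With the number range as a block, the count of members called went from 5 to 0 for DKO minus WT and DKO minus KO, from 1 to 0 at DKO week 16, and from 0 to 2 for DKO weeks 4 to 16 and for the DKO F test, and Hsd17b2 in DKO minus WT turned to 0.35. Within numbers 1 to 20, and equally without the 9 low-range arrays, KO week 12 held 1 array and DKO had no replicate. The KO counts within those numbers are given above, and no DKO count is given. Within numbers 22 to 33 DKO week 0 held 1 array, so no count is given there either. Quantile normalization gave 0 for KO minus WT, 0 for DKO minus WT at week 0, 1 for DKO weeks 4 to 16 and 2 for the DKO F test. Array weights gave 3 for KO minus WT, 1 for KO minus WT at week 0, 0 for DKO minus WT at week 0, 0 at DKO week 16 and 1 each for the WT and KO F tests. Only the groups compared in the fit gave 2 for KO minus WT, 0 for DKO minus WT at week 0 and 0 at DKO week 16. Median centring and the low-value filter each gave 2 for DKO minus WT at week 0, the filter, which leaves fewer genes and drops dim members, gave 3 for DKO minus KO, and the trended variance gave 0 at DKO week 16. Where no share of all genes called is given for a setting, here or below, its member counts have no background to be read against. The cause of the other changes was not tested.

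Same-numbered replicates did not deviate together, with r over 0.1 in 16 of 105 pairs of groups (-0.53 to 0.65), so the numbers do not pair the mice. With the replicate block 0 members were called at DKO week 16 (Hsd17b4 -1.98, adjusted p = 0.0577 by limma), and no other member call changed. Leaving out single arrays gave 0 to 5 members for DKO minus WT at week 0, 0 to 2 for DKO minus KO at week 0, DKO week 16 and the DKO F test, 0 to 1 for DKO weeks 4 to 16 and the KO F test, and 1 to 2 for KO minus WT. Akr1c18 turned sign then, from -0.072 to 2.09 at DKO week 16 and from -0.071 to 0.41 for DKO minus KO. A group left with 1 array is assumed to vary like the others, although array weights differed between genotypes. Restricting the adjustment to genes named by the platform table was chosen after seeing the data.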
